A study of Homo sapiens with 4 samples.

Results

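Histones are the proteins around which DNA is wound, and their genes are described here across the 4 arrays of a study on both strands of miR-486. A gene was included when its current symbol was that of a linker histone (H1-), of a replication-dependent core histone (H2AC, H2BC, H3C or H4C) or of one of the variants H2AX, H2AZ1, H2AZ2, H3-3A, H3-3B, MACROH2A1 and MACROH2A2, and pseudogenes were left out. The choice used names alone and no measured value. Of 22435 genes that the arrays named, 81 protein-coding histone genes were sought, 75 had at least 1 probe (87 probes in all) and 73 had a probe well above background. The testis and oocyte genes H2BC1 and H1-8 had a probe that was not well above background on any array, and H2AC18, H2BC12L, H2BC18, H3-3B, H3C14 and H4C14 had no matched probe.

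Cells labeled A549, a line from a human lung adenocarcinoma, were given miR-486-5p (1 array, the 5p strand), miR-486-3p (1 array, the 3p strand) or the transfection reagent Lipofectamine RNAiMAX with no miRNA (2 mock arrays), all in RPMI 1640 medium. Total RNA was labeled with Cy3 and measured on 1-color Agilent arrays that shared 1 slide and 1 scan. Nothing in the labels says whether the mock arrays came from separate cultures, so the tests below measure only the spread between these arrays, and each transfected array had no replicate of its own. Levels are given as log2 of the background-corrected signal minus the 75th percentile of that signal on the same array, so 0 is that percentile, and a level of one probe cannot be set against that of another.

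The line label was set against marker genes. The epithelial keratins KRT8 and KRT18 each had a probe well above background on all 4 arrays. AKR1B10, an aldo-keto reductase that A549 cells are known for, was well above background on at most 1 array with either of its probes, and EPCAM was on 2. On the mock arrays the mean log2 level was −2.36 for KRT19, −2.56 and −2.12 for the AKR1C1 probes, −6.78 and −3.50 for ALDH1A1, −6.77 and −2.97 for ALDH3A1, and 0.20 for NQO1. CDKN2A, a cell cycle inhibitor gene that is deleted in A549, was well above background on all 4 arrays with both probes, at 6.0 and 3.53 on the mock arrays. NKX2-1, the other gene listed as one that A549 should lack, was well above background on 2 arrays, at −4.74 on the mock arrays. The cells are therefore called here the cells labeled A549, since CDKN2A and AKR1B10 went against that label, while NKX2-1 was low. Of the markers of leukocytes, endothelium and fibroblasts, 7 of 8 had a probe, and 3 of these 7 had none well above background on all 4 arrays (PECAM1, LUM and COL1A1), while CD3E, DCN, PTPRC and VWF each had one, at mean mock levels of −1.62 or lower. The mock arrays differed by an SD of 0.196 over 28246 probes.

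A nucleosome holds pairs of H2A, H2B, H3 and H4, and a linker histone H1 sits where DNA enters and leaves it. Replication-dependent histone genes lie in clusters, are transcribed mainly in S phase, and make mRNA that ends in a stem-loop in place of a poly(A) tail. Variant histones such as H2AX, H2A.Z, H3.3 and macroH2A, and replacement linkers such as H1.10, can be made outside S phase from polyadenylated mRNA. The labeling kit used here starts from poly(A) tails, so transcripts without a tail are read only in the part that was primed, and which part that was is not known from the files. In bulk RNA, fewer cells in S phase and less histone RNA per cell cannot be told apart. The coding sequences within a core histone family are nearly identical, and since probe sequences were not used here, signal that a probe takes from another member of its family cannot be told apart from that of the gene it names.

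The promoters of these families differ in short motifs, and the sequences below, the 250 bases before the transcription start on the strand of the gene from RefSeq (GRCh38.p14), show them for the genes the results turn on. H4C2 is the H4 gene with the largest fall after miR-486-3p, H2AC14 and H2AC7 are the H2A members of divergent pairs that moved in opposite ways, H1-5 and H2AC19 had the largest fall and the largest rise after miR-486-3p among the histone genes, and H2AX is a variant that fell. They were chosen after these values were seen. Capitals mark matches on either strand to the octamer ATTTGCAT, the H4 element GGTCCG, the CCAAT box CCAAT and the TATA box TATAA.
H4C2, chr6:26027284-26027533, minus strand: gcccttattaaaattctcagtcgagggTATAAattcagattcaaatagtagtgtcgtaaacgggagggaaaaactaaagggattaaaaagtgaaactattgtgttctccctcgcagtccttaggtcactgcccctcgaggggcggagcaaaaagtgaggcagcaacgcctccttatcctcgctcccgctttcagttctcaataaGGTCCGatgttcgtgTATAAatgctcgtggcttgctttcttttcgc
H2AC14, chr6:27814778-27815027, minus strand: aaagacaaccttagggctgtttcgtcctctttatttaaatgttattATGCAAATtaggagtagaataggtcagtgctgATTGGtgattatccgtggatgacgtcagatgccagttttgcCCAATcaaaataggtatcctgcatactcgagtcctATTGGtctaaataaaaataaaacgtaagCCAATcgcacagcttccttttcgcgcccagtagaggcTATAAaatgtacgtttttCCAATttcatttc
H2AC7, chr6:26199294-26199543, minus strand: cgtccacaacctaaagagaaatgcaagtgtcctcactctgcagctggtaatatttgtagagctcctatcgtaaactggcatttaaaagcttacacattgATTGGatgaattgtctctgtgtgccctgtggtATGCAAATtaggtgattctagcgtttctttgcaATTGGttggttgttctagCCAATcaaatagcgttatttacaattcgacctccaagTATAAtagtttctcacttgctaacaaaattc
H1-5, chr6:27867589-27867838, minus strand: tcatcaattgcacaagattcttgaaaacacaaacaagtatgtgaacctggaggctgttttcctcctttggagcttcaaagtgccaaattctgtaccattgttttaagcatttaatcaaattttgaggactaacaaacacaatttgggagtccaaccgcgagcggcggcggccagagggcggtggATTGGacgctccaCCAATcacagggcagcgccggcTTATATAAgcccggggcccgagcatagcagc
H2AX, chr11:119095466-119095715, minus strand: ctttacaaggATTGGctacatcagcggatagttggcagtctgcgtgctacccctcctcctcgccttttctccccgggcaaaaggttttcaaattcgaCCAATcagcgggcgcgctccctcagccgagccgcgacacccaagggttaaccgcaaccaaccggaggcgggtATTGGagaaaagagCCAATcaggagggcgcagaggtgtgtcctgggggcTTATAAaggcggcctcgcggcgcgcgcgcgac
H2AC19, chr1:149850811-149851060, plus strand: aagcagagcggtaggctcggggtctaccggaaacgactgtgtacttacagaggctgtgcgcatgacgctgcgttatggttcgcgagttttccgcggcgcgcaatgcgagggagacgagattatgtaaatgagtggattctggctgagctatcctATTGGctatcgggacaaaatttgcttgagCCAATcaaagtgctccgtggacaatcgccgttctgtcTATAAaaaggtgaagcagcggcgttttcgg
The H4C2 sequence has no octamer and no CCAAT box, and its H4 element stands a little before a TATA box. H2AC14 and H2AC7 each have 1 octamer, seen on this strand as ATGCAAAT, among CCAAT boxes in both orientations. H1-5, H2AX and H2AC19 have CCAAT boxes and no exact octamer.

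Of 81 histone genes, 74 had at least 1 promoter window of 300 bases (250 before and 50 after the start). A histone gene was counted where any of its windows held the motif, while the shares over all of RefSeq are per window. The octamer was in 14 of 18 H2B genes, 11 of 16 H2A genes, 1 of 11 H3 genes and 0 of 13 H4 genes, against 1.77% of all 35116 RefSeq windows. GGTCCG was in 12 of 13 H4 genes, 1 of 16 H2A genes and 1 of 18 H2B genes, against 11.3% of all windows. CCAAT was in all 16 H2A, all 18 H2B, all 11 H3 and all 6 clustered H1 genes and in 3 of 13 H4 genes, against 34.6% of all windows. TATAA was in 15 of 16 H2A, 17 of 18 H2B, 11 of 11 H3 and 11 of 13 H4 genes, against 20.4%. A match is a description of these letters and not a binding site.

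**Figure D1:**
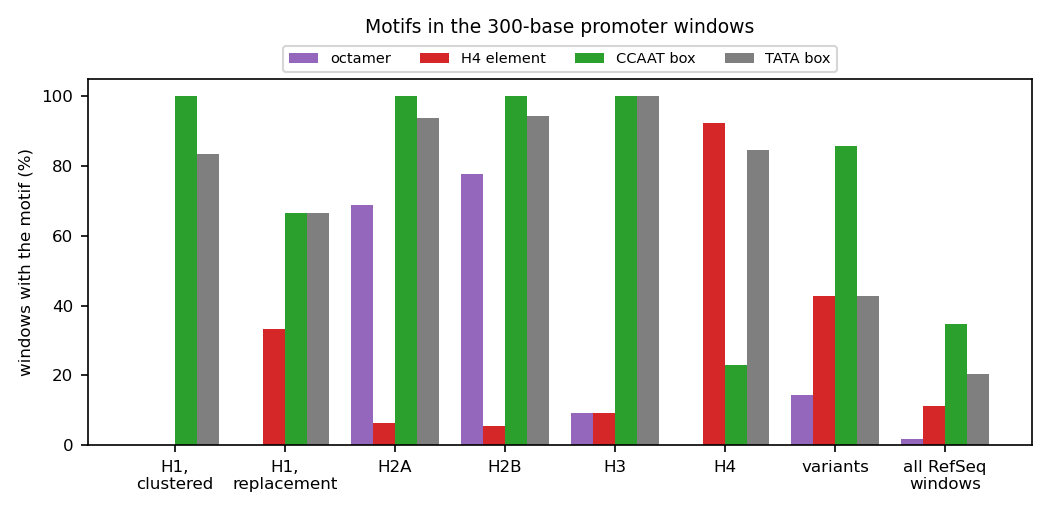
Share (y axis, percent) with each motif on either strand in a promoter window, for each histone family and for all RefSeq windows (x axis). Histone families are counted by gene, with a match in any window of the gene, and RefSeq by window. The octamer was in 77.8% of H2B and 68.8% of H2A genes and GGTCCG in 92.3% of H4 genes, while all windows had 1.77% and 11.3%.

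As a group, histone genes were lower after both strands of miR-486, and more so after miR-486-3p. After miR-486-5p, 45 of 73 genes were lower and 9 higher by more than 0.5 on the log2 scale, where 15.8% of all 16021 genes were lower and 13.8% higher, and the median difference was −0.63 against 0.03 over all genes. After miR-486-3p, 47 were lower and 5 higher, where 27.2% of 16443 genes were lower and 30.4% higher, and the median was −1.34 against 0.06. Both comparisons use the same mock arrays, so their values are given side by side. Between the mock arrays, 1 of 72 genes (H1-1) was lower and none higher by this measure, where 1.24% of all genes were lower and 1.69% higher.

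limma was fitted to all 4 arrays across 33498 probes, and a gene was called when every probe of it passed an adjusted p of 0.05 in the same direction. With miR-486-5p, 29 histone genes passed as lower and 3 as higher, beside 4.83% of all 16659 genes as lower and 2.25% as higher. With miR-486-3p, 47 passed as lower and 7 as higher, beside 25.7% and 25.6% of all genes. The calls for miR-486-5p lie close to the limit, with adjusted p from 0.0476 to 0.0498, and fell to 0 lower and 0 higher with no filter on dim probes and with the log2 values that the authors deposited, settings in which limma called 0 of all genes as well. At an unadjusted p under 0.05, 43 histone genes were lower and 12 higher with no filter, beside 14.4% and 14.2% of all genes, and 42 were lower and 12 higher with the deposited values, beside 20.2% and 16.5%.

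The strands were also set against each other. The difference itself leaves out the mock arrays, but the limma test of it takes its spread from them. From miR-486-5p to miR-486-3p, 38 of 73 histone genes were lower and 6 higher by more than 0.5, where 26.4% of 16558 genes were lower and 28.5% higher, and the median was −0.63 against 0.03 over all genes. limma called 34 lower on the miR-486-3p array and 5 higher, where it called 21.7% of genes lower and 20.8% higher.

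**Figure D2:**
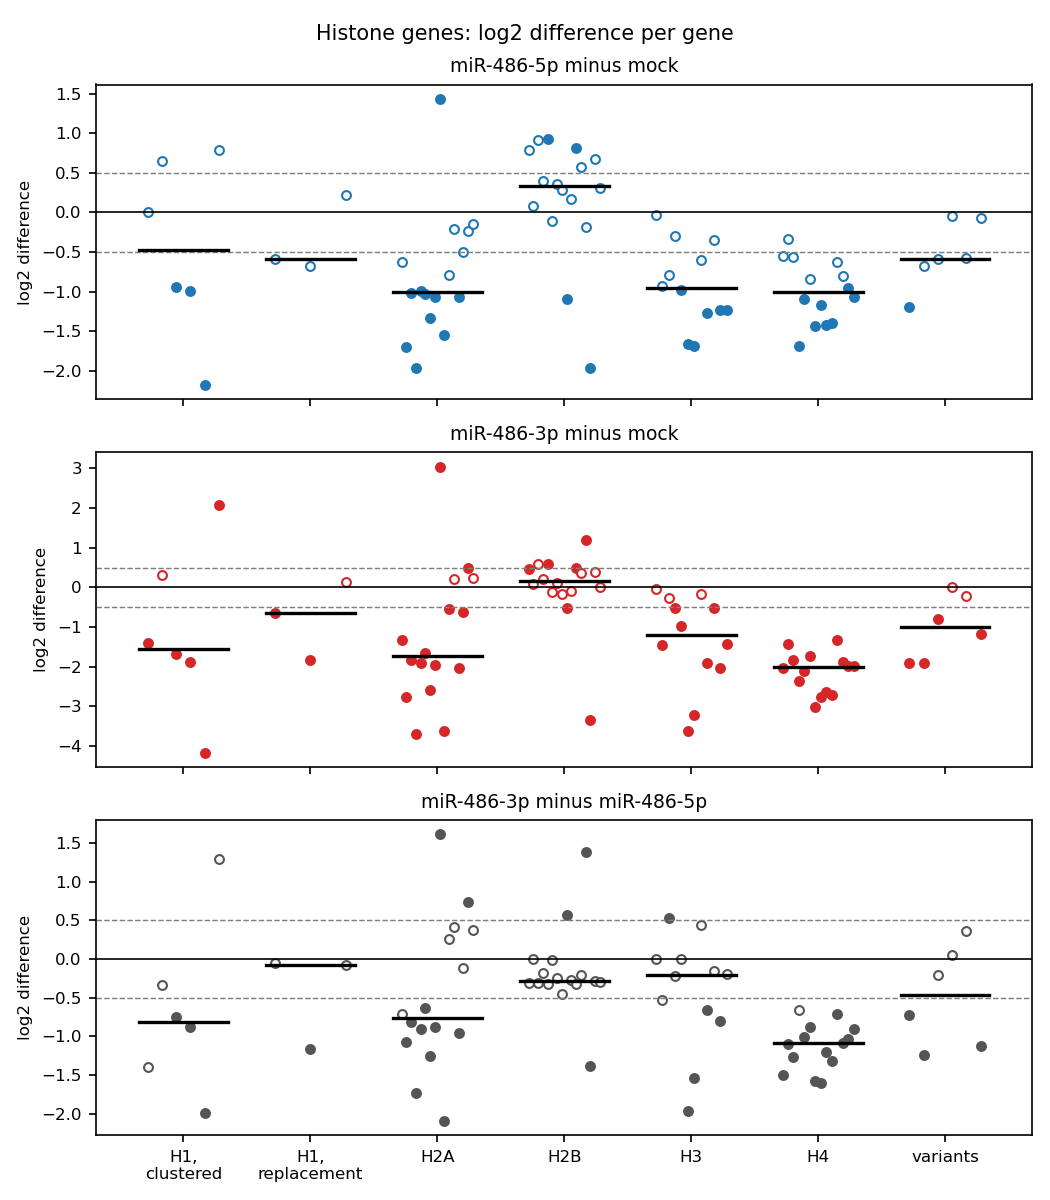
Log2 difference (y axis) of each histone gene with the 5p strand, with the 3p strand and between them, by family (x axis). Points are genes, filled where limma called them, black bars are medians and dashed lines mark 0.5 in either direction. H4 medians are −1.01 and −2.02 and H2B medians 0.33 and 0.16, and the H2B median after miR-486-3p becomes −0.21 when arrays are scaled on their medians.

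Among the linker histones, the clustered genes H1-3, H1-4 and H1-5 were lower after both strands, while H1-2 was not called after either. The level of H1-5 was 3.61 and 3.64 with reagent alone, 1.45 with the 5p strand and −0.55 with the 3p strand. Both transfected arrays lay below both mock arrays, and miR-486-3p was the lowest. The H1-5 difference was −2.18 ± 0.09 (SE, adjusted p = 0.0476) for miR-486-5p, which is 22.1% of the mock level. For miR-486-3p it was −4.18 ± 0.09 (SE, adjusted p = 0.00762), or 5.53% of the mock level, the largest fall of the 73 genes. The direct difference between the strands was −2.0 ± 0.10 (SE, adjusted p = 0.0118).

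H1-4 and H1-3 moved the same way by less. The level of H1-4 was 4.16 and 4.25 with reagent alone, 3.21 with the 5p strand and 2.33 with the 3p strand, and the differences were −1.0 ± 0.10 (SE, adjusted p = 0.048) and −1.87 ± 0.10 (SE, adjusted p = 0.00784). H1-3 read 2.90 and 2.85 with reagent alone, 1.94 with the 5p strand and 1.18 with the 3p strand, with differences of −0.94 ± 0.09 (SE, adjusted p = 0.0479) and −1.69 ± 0.09 (SE, adjusted p = 0.00794). For both genes the order of the arrays was the one seen for H1-5. H1-2, whose gene is known to make some polyadenylated mRNA, stood at 5.15 and 5.19 with reagent alone, 5.82 with the 5p strand and 5.49 with the 3p strand. Here both transfected arrays lay above the mock arrays, by 0.65 ± 0.09 (SE) and 0.32 ± 0.09 (SE), without a limma call (adjusted p = 0.0557 and 0.0749), and the miR-486-3p value fell below 0 when arrays were scaled on their medians.

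H1-1, a clustered gene made in few tissues, gave a dim signal of −2.65 and −3.33 with reagent alone, −2.99 with the 5p strand and −4.68 with the 3p strand. The mock arrays differed by 0.68 here, the widest gap of the 72 histone genes well above background on both. With the 3p strand its probe was not well above background, and it was at least 2.64-fold lower, although with normexp background correction the difference was −0.09. H1-6, a testis linker histone, read −6.90 and −6.19 with reagent alone, −3.93 with the 5p strand and −2.64 with the 3p strand, and was not well above background on either mock array. It was therefore in use through the transfected arrays alone, and was at least 4.22-fold higher with the 3p strand and at least 1.73-fold higher with the 5p strand, while with normexp the log2 difference with the 3p strand was 0.49. The limma calls of H1-1 and H1-6 with the 3p strand rest on signal not well above background and are given no p here.

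H1-10 is a replacement linker that can be made outside S phase. It was at 1.20 and 1.26 with reagent alone, 0.56 with the 5p strand and −0.60 with the 3p strand, so that miR-486-3p stood below the other arrays by more than miR-486-5p did. limma gave −0.67 ± 0.09 (SE, adjusted p = 0.0553) for miR-486-5p, −1.83 ± 0.09 (SE, adjusted p = 0.0077) for miR-486-3p and −1.16 ± 0.11 (SE, adjusted p = 0.0158) between the strands. H1-7, a sperm linker, read −2.32 and −2.04 with reagent alone, −1.95 with the 5p strand and −2.04 with the 3p strand, differed by 0.23 and 0.14 and was not called.

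H2A genes were lower in 12 of 16 cases after each strand, beside 15.8% and 27.2% of all genes, with medians of −1.0 and −1.74. limma called 9 lower and 1 higher with the 5p strand, beside 4.83% and 2.25% of all genes. With the 3p strand it called 12 lower and 2 higher, beside 25.7% and 25.6%. H2AC13 fell the most and stood at 2.59 and 2.57 with reagent alone, 0.62 with the 5p strand and −1.11 with the 3p strand, with differences of −1.96 ± 0.09 (SE, adjusted p = 0.0476) and −3.69 ± 0.09 (SE, adjusted p = 0.00762). The H2AC20 level was 4.29 and 4.39 with reagent alone, 2.80 with the 5p strand and 0.71 with the 3p strand, and its differences were −1.54 ± 0.10 (SE, adjusted p = 0.0476) and −3.63 ± 0.10 (SE, adjusted p = 0.00762). For H2AC11 the arrays gave 3.44 and 3.53 with reagent alone, 1.79 with the 5p strand and 0.72 with the 3p strand, and differences of −1.69 ± 0.10 (SE, adjusted p = 0.0476) and −2.77 ± 0.10 (SE, adjusted p = 0.00762). In these 3 genes, picked for their low miR-486-3p differences, neither transfected array overlapped the mock arrays and miR-486-3p was the lower of the pair.

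H2AC19 went the other way. Its level was −0.23 and −0.23 with reagent alone, 1.20 with the 5p strand and 2.82 with the 3p strand. Both transfected arrays lay above both mock arrays, miR-486-3p highest, with differences of 1.43 ± 0.09 (SE, adjusted p = 0.0476) and 3.05 ± 0.09 (SE, adjusted p = 0.00762), and the strands themselves differed by 1.61 ± 0.10 (SE, adjusted p = 0.0121). It was the H2A gene with the highest value after both strands and is near-identical in coding sequence to H2AC18, which had no probe here. H2AC7, at 4.29 and 4.33 with reagent alone, 4.07 with the 5p strand and 4.81 with the 3p strand, was not called after miR-486-5p at −0.24 ± 0.09 (SE) and rose by 0.50 ± 0.09 (SE, adjusted p = 0.033) with the 3p strand. H2AC25 and H2AC8 were also above the mock mean with the 3p strand, at 0.20 and 0.23, without a call, and their signs changed under other settings. Of the rest, H2AC6 is taken up with the polyadenylated genes below.

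Most other H2A genes lay close together. H2AC4, H2AC12, H2AC14, H2AC15, H2AC16 and H2AC17 had miR-486-5p differences from −1.33 to −1.0 and miR-486-3p differences from −2.58 to −1.66, all called by limma. H2AC1, the testis H2A, and H2AC21 were called only with the 3p strand, at −1.34 and −0.54.

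H2B genes were mostly not called. Of 16 with a value, 2 were lower and 6 higher after miR-486-5p (median 0.33), and 2 were lower and 3 higher with the 3p strand (median 0.16, or −0.21 with arrays scaled on their medians and 0.45 with the deposited log2 values). By more than 0.5 on the log2 scale, 15.8% of all genes were lower and 13.8% higher after miR-486-5p. With the 3p strand these shares were 27.2% and 30.4%. limma called 2 lower and 2 higher with the 5p strand, beside 4.83% and 2.25% of all genes. With the 3p strand it called 2 lower and 4 higher of 16, beside 25.7% and 25.6% of all genes, so the share called higher was near that of all genes. Between the strands it called 1 lower and 2 higher of the 16, beside 21.7% and 20.8% of all genes.

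H2BC7 was the exception with the largest fall. The arrays gave 1.13 and 1.16 with reagent alone, −0.82 with the 5p strand and −2.21 with the 3p strand, differences of −1.97 ± 0.09 (SE, adjusted p = 0.0476) and −3.35 ± 0.09 (SE, adjusted p = 0.00762), with no overlap between the transfected and mock arrays. H2BC26 was at −2.23 and −2.13 with reagent alone, −3.28 with the 5p strand and −2.71 with the 3p strand. It was called lower with smaller differences of −1.09 ± 0.10 (SE, adjusted p = 0.0476) and −0.53 ± 0.10 (SE, adjusted p = 0.0369). Under other settings these ran from −1.17 to −0.22 and from −0.90 to −0.01. Its miR-486-3p array stood above its miR-486-5p array by 0.57 ± 0.12 (SE, adjusted p = 0.0485). At the other end, H2BC14 read 4.21 and 4.19 with reagent alone, 5.12 with the 5p strand and 4.80 with the 3p strand, above the mock arrays by 0.92 ± 0.09 (SE, adjusted p = 0.0476) and 0.60 ± 0.09 (SE, adjusted p = 0.0234). H2BC6 was dim, at −3.46 and −3.03 with reagent alone, −3.42 with the 5p strand and −2.04 with the 3p strand, and only miR-486-3p stood clear of the mock arrays, by 1.21 ± 0.24 (SE, adjusted p = 0.0393). H2BC10 was called higher with the 3p strand at 0.47 (adjusted p = 0.0356), and limma did not call H2BC3, H2BC9, H2BC11, H2BC13, H2BC15 or H2BC17 after either strand, with miR-486-3p differences from −0.12 to 0.22.

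The genes known to make polyadenylated mRNA as well, H1-2, H2AC6, H2BC4, H2BC5, H2BC12 and H2BC21, had medians of 0.61 after miR-486-5p and 0.34 with the 3p strand (−0.04 with arrays scaled on their medians). H2BC4 was at 2.61 and 2.62 with reagent alone, 3.43 with the 5p strand and 3.10 with the 3p strand and was called higher after both, by 0.81 ± 0.09 (SE, adjusted p = 0.0498) and 0.48 ± 0.09 (SE, adjusted p = 0.033). H2BC12 read 4.48 and 4.48 with reagent alone, 5.39 with the 5p strand and 5.08 with the 3p strand as a mean of 2 probes, and H2BC5 read 2.94 and 2.94 with reagent alone, 3.52 with the 5p strand and 3.30 with the 3p strand. Both transfected arrays stood above the mock arrays in each of these 3 genes, yet neither H2BC12 nor H2BC5 was called. With arrays scaled on their medians, limma called 0 of the 6 genes higher with the 3p strand. H2BC12 differed by 0.91 and 0.60. Of its 2 probes, the first, at 1.07 and 0.83, passed with both strands and the second, at 0.74 and 0.37, with neither. H2BC5 differed by 0.58 ± 0.09 (SE) and 0.36 ± 0.09 (SE), the last value falling below 0 with arrays scaled on their medians. H2BC21 and H2AC6 had 2 probes each. Those of H2BC21 disagreed with both strands, and those of H2AC6 after miR-486-5p. The first H2BC21 probe read −3.55 and −3.77 with reagent alone, −2.52 with the 5p strand and −2.64 with the 3p strand, which gave differences of 1.14 and 1.01. The second read −1.90 and −1.69, then −2.37 and −3.16, which gave −0.58 and −1.37, so the probes stood on opposite sides of the mock arrays. The first H2AC6 probe read −1.5 and −1.45 with reagent alone, −1.47 with the 5p strand and −1.90 with the 3p strand, which gave 0.01 and −0.42. The second read 2.40 and 2.36, then 1.36 and 1.56, which gave −1.01 and −0.82, so only this probe was below the mock arrays with both strands. With the 3p strand both H2AC6 probes were lower, and limma called the gene lower.

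Many H2A and H2B genes lie head to head, their starts 194 to 248 bases apart, and share the sequence between them. There were 11 such pairs and 10 had values for both genes. In 8 of the 10, the H2B gene had the higher difference after each strand, with a median gap of 1.37 (miR-486-5p) and 1.80 (miR-486-3p). H2AC13 and H2BC13 were furthest apart with the 3p strand: the H2A gene differed by −3.69 and the H2B gene by 0.22. In H2AC14 and H2BC14, whose shared promoter is printed above, the values were −1.91 and 0.60. The pair of H2AC7 and H2BC7 was turned around, with the H2A gene at 0.50 and the H2B gene at −3.35, and so was that of H2AC25 and H2BC26, at 0.20 and −0.53. H2AC25 was not called and changed sign under other settings, where the H2BC26 value came as near to 0 as −0.01. The gap between members of a pair was not tested.

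**Figure D3:**
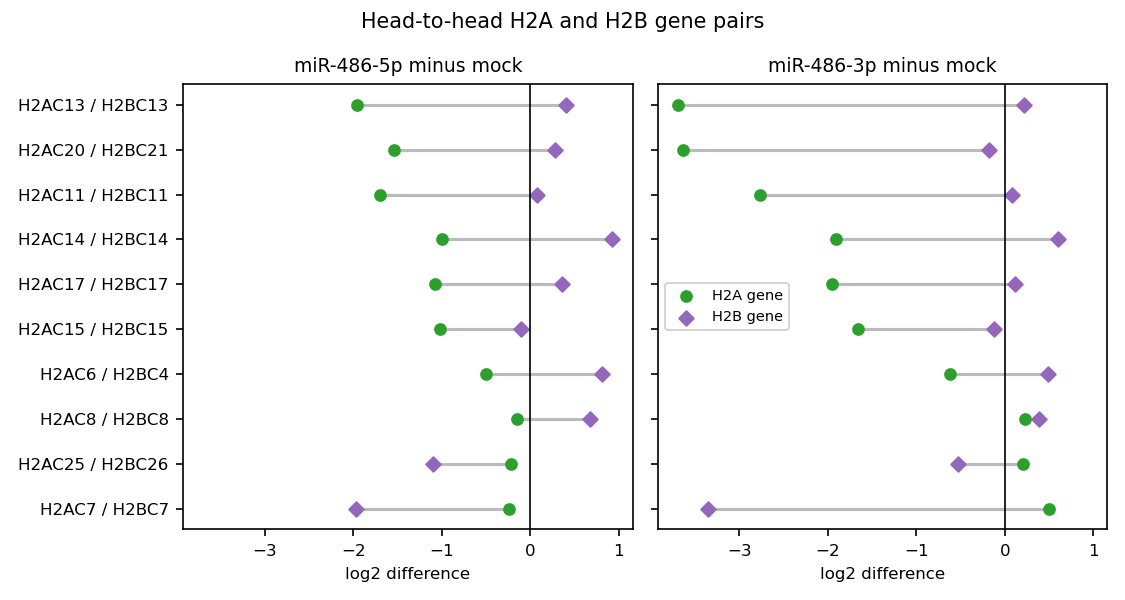
Log2 difference (x axis) of the H2A gene (green circles) and the H2B gene (purple diamonds) of each head-to-head pair (y axis) for the 5p and the 3p strand. The H2B gene lies to the right in 8 of 10 pairs after each strand, and to the left in H2AC7 with H2BC7 and H2AC25 with H2BC26, and signs near 0 change under other settings.

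H3 genes were lower in 9 of 12 cases after each strand, beside 15.8% and 27.2% of all genes, with none higher and medians of −0.95 and −1.20. limma called 6 lower after miR-486-5p and 9 with the 3p strand, beside 4.83% and 25.7% of all genes. H3C15, at 4.86 and 4.88 with reagent alone, 3.21 with the 5p strand and 1.25 with the 3p strand, differed by −1.66 ± 0.09 (SE, adjusted p = 0.0476) and −3.62 ± 0.09 (SE, adjusted p = 0.00762). H3C2 stood at 5.37 and 5.37 with reagent alone, 3.69 with the 5p strand and 2.15 with the 3p strand, with −1.68 ± 0.09 (SE, adjusted p = 0.0476) and −3.21 ± 0.09 (SE, adjusted p = 0.00762), and H3C7 at 3.87 and 3.79 with reagent alone, 2.60 with the 5p strand and 1.80 with the 3p strand, with −1.23 ± 0.10 (SE, adjusted p = 0.0476) and −2.03 ± 0.10 (SE, adjusted p = 0.00762). These 3 genes were picked for their low miR-486-3p differences. All their transfected values lay below the mock arrays, the miR-486-3p value lowest. At the other end, H3C1 was not called after either strand, at 3.97 and 3.95 with reagent alone, 3.93 with the 5p strand and 3.92 with the 3p strand, with differences of −0.03 ± 0.09 (SE) and −0.04 ± 0.09 (SE). H3C3, at 4.58 and 4.56 with reagent alone, 3.97 with the 5p strand and 4.41 with the 3p strand, had a miR-486-3p difference of −0.16 ± 0.09 (SE, adjusted p = 0.229). H3C11 and H3C13 differed between strands in another way: H3C13 was called lower by nearly the same amount after both, −0.98 and −0.97, and H3C11 was higher with the 3p strand than after miR-486-5p by 0.52 ± 0.11 (SE, adjusted p = 0.0466). Between the strands limma called 4 of 12 H3 genes lower and 1 higher, beside 21.7% and 20.8% of all genes.

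H4 genes were lower with the 3p strand in the main setting without exception. All 14 were lower by more than 0.5, from −3.01 to −1.34 (median −2.02), and limma called all 14, although with normexp 12 were lower by that much and 13 were called. After miR-486-5p, 13 of 14 were lower by more than 0.5 (median −1.01) and 8 were called. From miR-486-5p to miR-486-3p all 14 were lower by more than 0.5 and 13 were called, with a median of −1.09. Of all genes, 15.8% were lower by that much after miR-486-5p, 27.2% with the 3p strand and 26.4% between the strands. limma called 4.83%, 25.7% and 21.7% of all genes lower in these comparisons. H4C2 read 7.26 and 7.20 with reagent alone, 5.80 with the 5p strand and 4.22 with the 3p strand, with differences of −1.43 ± 0.09 (SE, adjusted p = 0.0476) and −3.01 ± 0.09 (SE, adjusted p = 0.00762). H4C3 was at 9.24 and 9.17 with reagent alone, 8.03 with the 5p strand and 6.44 with the 3p strand, with −1.17 ± 0.09 (SE, adjusted p = 0.0476) and −2.77 ± 0.09 (SE, adjusted p = 0.00762), and H4C5 at 5.30 and 5.27 with reagent alone, 3.89 with the 5p strand and 2.57 with the 3p strand, with −1.39 ± 0.09 (SE, adjusted p = 0.0476) and −2.72 ± 0.09 (SE, adjusted p = 0.00762). The order of arrays, mock above miR-486-5p above miR-486-3p, was shared by these genes, which were picked for their low miR-486-3p differences. The smallest differences with the 3p strand were those of H4C6, at 1.39 and 1.30 with reagent alone, 0.72 with the 5p strand and 0.01 with the 3p strand, and H4C11, at 3.41 and 3.19 with reagent alone, 2.97 with the 5p strand and 1.87 with the 3p strand, and these were −1.34 ± 0.10 (SE, adjusted p = 0.00957) and −1.43 ± 0.15 (SE, adjusted p = 0.0138). H4C7, which differs in sequence from the other H4 genes, was not well above background with the 3p strand and was at least 3.71-fold lower, while its log2 difference with normexp was −0.17. H4C1 and H4C12 had probes that disagreed after miR-486-5p, at 0.18 and −1.27 and at −0.15 and −0.98. The 2 probes of H4C13 disagreed between the strands, at −1.58 and 0.26, for a mean of −0.66.

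Of the variants, H2AX, which is phosphorylated at DNA breaks and whose gene makes both kinds of mRNA end, was at 5.58 and 5.59 with reagent alone, 4.39 with the 5p strand and 3.67 with the 3p strand. Its differences were −1.20 ± 0.09 (SE, adjusted p = 0.0476) and −1.92 ± 0.09 (SE, adjusted p = 0.00762), and both arrays lay below the mock arrays. H2AZ1, one of the genes for H2A.Z, which marks promoters, read 6.86 and 6.81 with reagent alone, 6.16 with the 5p strand and 4.92 with the 3p strand, and its fall was called with the 3p strand alone, at −1.91 ± 0.09 (SE, adjusted p = 0.00762), against −0.67 ± 0.09 (SE, adjusted p = 0.0551) after miR-486-5p. The strands differed for H2AZ1 by −1.24 ± 0.11 (SE, adjusted p = 0.0147). H2AZ2, the other H2A.Z gene, was at 2.40 and 2.41 with reagent alone as a mean of 2 probes. It was at 1.81 with the 5p strand and 1.61 with the 3p strand. The mean differences were −0.59 and −0.79, and the gene was called lower with the 3p strand alone. The first probe, at 6.73 and 6.67 with reagent alone, differed by −0.80 and −0.64. The second, at −1.94 and −1.86, differed by −0.38 and −0.95, so the probes put the strands in opposite order.

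MACROH2A2, a large variant found on inactive chromatin, stood at −0.81 and −0.73 with reagent alone, −0.84 with the 5p strand and −1.96 with the 3p strand, so that miR-486-5p lay next to the mock arrays and miR-486-3p below them, by a difference of −1.19 ± 0.10 (SE, adjusted p = 0.0105), and the direct difference was −1.12 ± 0.11 (SE, adjusted p = 0.017). MACROH2A1 stood at 4.92 and 4.91 with reagent alone, 4.34 with the 5p strand and 4.70 with the 3p strand, with −0.58 ± 0.09 (SE, adjusted p = 0.0593) and −0.22 ± 0.09 (SE, adjusted p = 0.14), and was not called. H3-3A, which makes H3.3, the H3 placed outside replication, read 6.90 and 6.83 with reagent alone, 6.82 with the 5p strand and 6.87 with the 3p strand over 3 probes. All 4 arrays lay between 6.82 and 6.90 for H3-3A, with differences of −0.04 and 0.01, and H3-3B had no probe. Counted together, the variants had medians of −0.58 and −0.99. limma called 1 of 6 lower after miR-486-5p, beside 4.83% of all genes, and 4 of 6 with the 3p strand, beside 25.7%.

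**Figure D4:**
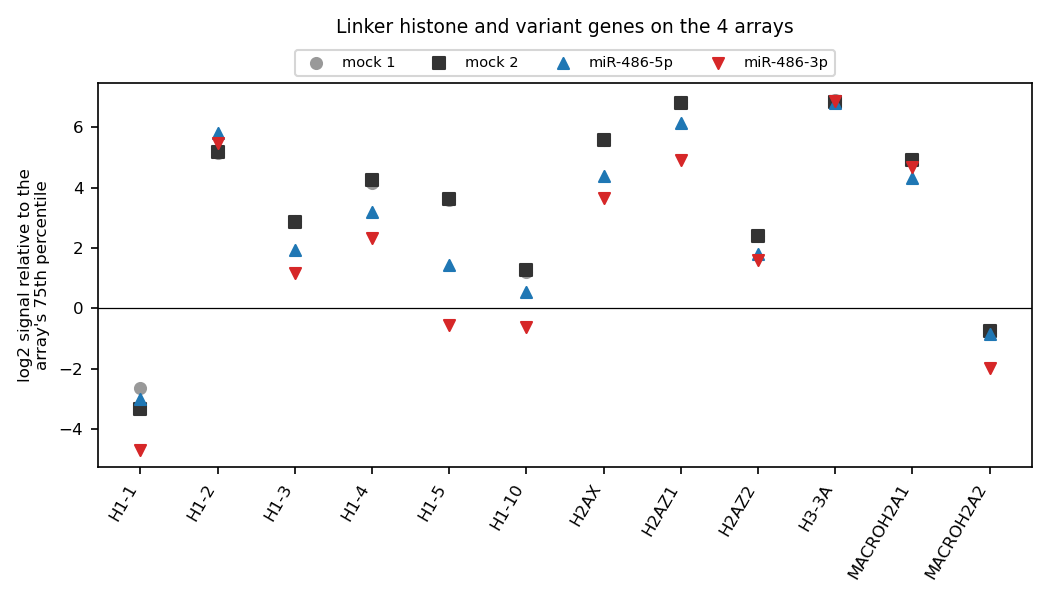
Level (y axis, log2 signal relative to the 75th percentile of the array) of linker histone and variant genes (x axis) on the 4 arrays. H1-5 falls from 3.61 and 3.64 on the mock arrays to 1.45 and −0.55, H3-3A stays between 6.82 and 6.90, and H1-2 lies above the mock arrays by 0.65 and 0.32, the latter below 0 when arrays are scaled on their medians.

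By cluster, the 54 measured genes of the large cluster HIST1 had medians of −0.62 and −1.43 (limma calls with the 5p strand were 23 lower and 2 higher, and with the 3p strand 34 and 6). The 7 measured genes of HIST2 had −0.98 and −0.97, with 4 lower and 1 higher and then 5 and 1. The 2 genes of HIST3 had medians of −0.65 and −0.16, the latter 0.09 with another background correction. For these counts and the next, limma called 4.83% of all genes lower and 2.25% higher with the 5p strand. With the 3p strand the shares of all genes were 25.7% and 25.6%. Without the H2B genes, the 48 replication-dependent genes had medians of −0.97 and −1.83, with 26 called lower and 1 higher and then 39 and 3.

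The genes that make and process histone mRNA had smaller median differences than the histone genes. All 21 of this list had a value, and limma called none lower or higher after miR-486-5p, beside 4.83% and 2.25% of all genes. At an unadjusted p under 0.05 there were 5 lower and 0 higher, beside 19.5% and 17.1% of all genes. With the 3p strand limma called 8 lower and 2 higher, beside 25.7% and 25.6% of all genes. The medians were −0.16 and −0.26. CDK2, the kinase that turns on histone gene transcription through NPAT, read 0.29 and 0.14 with reagent alone, −0.15 with the 5p strand and −1.87 with the 3p strand, and its miR-486-3p difference was −2.08 (adjusted p = 0.00821). Its miR-486-5p array was also below the mock arrays, by a difference of −0.36 that was not called. CCNE1, the cyclin of CDK2, read 3.10 and 3.07 with reagent alone, 2.63 with the 5p strand and 4.53 with the 3p strand and rose by 1.44 (adjusted p = 0.00849). Only miR-486-3p stood above the mock arrays for CCNE1. ERI1, which trims histone mRNA at the stem-loop, ZNF473, a U7 processing factor, and POU2F1, which binds the octamer, were called lower with the 3p strand, with differences of −1.42, −1.14 and −0.93. SLBP, the stem-loop binding protein, was called lower with a difference of −0.49 (adjusted p = 0.0356), and NPAT and HINFP, the activator of H4 genes, differed by −0.25 and 0.31 with no call.

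Histone chaperones and exchange factors carry histones to and from DNA. Of 25 chaperone and exchange genes, limma called 5 lower and 1 higher with the 5p strand, beside 4.83% and 2.25% of all genes, and 14 lower and 3 higher with the 3p strand, beside 25.7% and 25.6%. The medians were −0.24 and −0.82. CHAF1B, a subunit of the CAF-1 complex that places H3 and H4 behind the replication fork, read 3.43 and 3.37 with reagent alone, 2.22 with the 5p strand and 0.36 with the 3p strand, with −1.18 (adjusted p = 0.0476) and −3.04 (adjusted p = 0.00762). HJURP, which carries the centromere H3 CENPA, read 5.53 and 5.48 with reagent alone, 4.57 with the 5p strand and 2.29 with the 3p strand, with −0.93 (adjusted p = 0.0478) and −3.22 (adjusted p = 0.00762). CHAF1A, ASF1B, which hands H3 and H4 to CAF-1, and MCM2, a helicase subunit that also binds H3 and H4, were called lower after both strands. NASP, which buffers soluble H3 and H4, parted the strands: the arrays read −0.42 and −0.41 with reagent alone, 0.54 with the 5p strand and −2.39 with the 3p strand, one difference was 0.95 (adjusted p = 0.0476), the other −1.98 (adjusted p = 0.00762). Its miR-486-5p array lay above both mock arrays and its miR-486-3p array below them, with a direct difference of −2.93 (adjusted p = 0.0118). ATRX, CDAN1 and CABIN1 were called higher with the 3p strand, at 1.0, 0.45 and 0.45. With arrays scaled on their medians, limma called 20 of the 25 lower and 0 higher with that strand. The shares of all genes were then 38.9% and 16.1%.

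**Figure D5:**
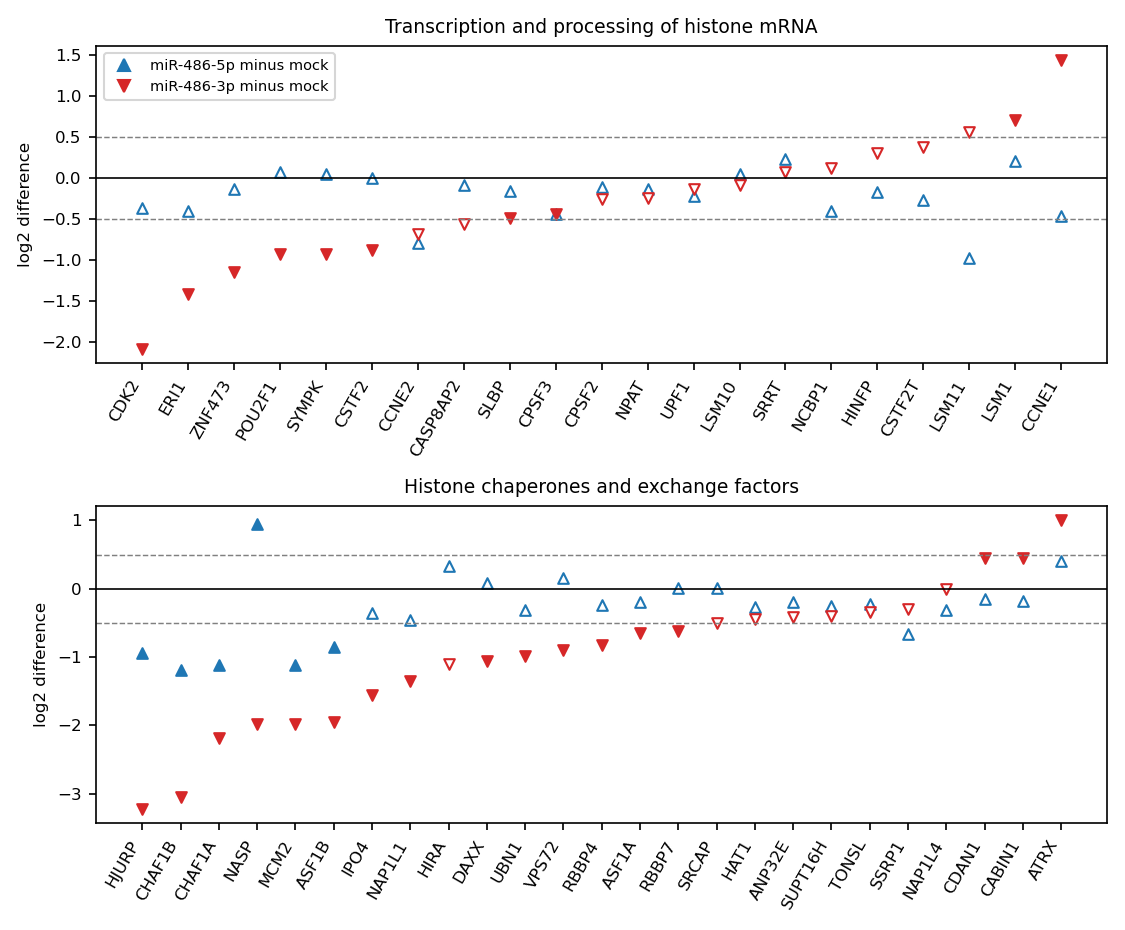
Log2 difference (y axis) of genes that make and process histone mRNA and of histone chaperones (x axis, in order of the miR-486-3p difference) with the 5p strand (blue) and the 3p strand (red). Filled points were called by limma and dashed lines mark 0.5 in either direction. HJURP, CHAF1B and CHAF1A lie lowest among the chaperones and NASP is 0.95 after miR-486-5p and −1.98 with the 3p strand.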

How the data were processed

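RNA of 4 samples was measured on 1-color Agilent arrays. The deposited files hold, per array, spot values that the authors made with Agilent Feature Extraction 12.1.1.1 (protocol GE1_1200_Jun14, array design on hg19), whose processed signal is an intensity corrected for background, and a table of log2 values of the same arrays whose scale is not stated in the sources used here. Precision is limited by how few arrays there are. No spot was saturated. Outlier spots (50 to 72 an array) were dropped, the signal was put on the log2 scale and reduced by the 75th percentile of its array (93.1 to 114) and spots of a probe were averaged. Probes well above background numbered 30690 to 31516 of 58201. A probe was used in a comparison if it was well above background on a whole side of it, and a side that was not was raised to the lowest signal well above background on its array, which makes the difference a bound. A gene is the mean of its probes in use, bounds included, and 0.5 on the log2 scale was the limit for lower and higher. Of 33080 probes with a RefSeq accession, 31100 matched a gene in the table of GRCh38.p14, used for names. Promoter windows came from RefSeq on that build.

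limma 3.58.1 in R 4.3.3 (lmFit, eBayes, Benjamini-Hochberg over 33498 probes) was fitted to 3 groups with 1 residual degree of freedom, between the mock arrays, a prior of 1.75 degrees of freedom and a prior SD of 0.0893, so the spread of the mock arrays stands in for that of each transfected array. The fit was tested on simulated data. Python 3.11.15 with pandas 2.3.3 and scipy 1.17.1 did the rest. The histone genes, the lists and the tests were chosen with earlier results of these data known. 1 linker gene enters the counts and medians, and its own values are not reported here. Values on every array are given for the other linker histones, variants, genes listed as polyadenylated and, in each core family, the 3 lowest and 2 highest miR-486-3p differences among genes whose probes are well above background on all 4 arrays. Alternatives were each mock array left out, median and quantile scaling, normexp with an offset of 50 on the median signal (the files hold no mean signal), no filter or a filter on all 4 arrays, the deposited log2 values, the brightest probe, a limit of 1, limma with an intensity trend, and the methods' t-test.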

Additional observations from a re-analysis of the deposited data

How the results depend on the processing

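No paired analysis was possible because the groups compared share fewer than 2 replicate numbers, each strand having 1 array. limma calls after miR-486-5p (29 lower, 3 higher) became 0 lower without the dim-probe filter or with the deposited log2 values, and 0 with the methods' t-test after Benjamini-Hochberg, which gave 34 lower unadjusted (9.39% of all genes); the higher count became 12 with an intensity trend or normexp (16.5% and 16.2% of all genes), 6 with median scaling (4.32%), 9 with probes on all 4 arrays (13.1%), 5 with quantile scaling (2.79%), 10 with the unadjusted t-test (7.6%), and 0 with no filter, the deposited values or the adjusted t-test. After miR-486-3p (47 lower, 7 higher), the adjusted t-test gave 0 and 0 (36 and 7 unadjusted, 16.8% and 13.6% of all genes), and the higher count was 13 with the trend, quantile scaling or the deposited values (31.8%, 25.2% and 22.3%), 12 with normexp (39.1%) and 3 with median scaling (16.1%). Between the strands the 5 higher became 8 with the trend or all-4 probes (27.8% and 25.3%), 10 with normexp (28.6%) and 2 with median scaling or no filter (14.8% and 9.41%). With a limit of 1, genes lower were 24 (4.61% of all genes), and higher 1 (2.53%), after miR-486-5p, 3 higher (14.8%) after miR-486-3p, and 22 lower (13.0%) and 3 higher (13.9%) between the strands. The 5 genes higher by fold after miR-486-3p became 3 with median scaling (17.8%), 2 with normexp (15.2%) and 12 with quantile scaling or the deposited values (28% and 27.9%), and the 6 between the strands became 3 with median scaling (18.8%) and 2 with normexp (14.2%). Between the mock arrays 1 gene was higher with no filter, and the 1 lower became 0 with a limit of 1, normexp or all-4 probes. The cause was not tested. Leaving out either mock array gave 42 to 45 lower and 9 higher after miR-486-5p, and 45 to 47 lower and 5 to 6 higher after miR-486-3p, and left limma no residual degree of freedom. No gene that was called in the text changed direction, whereas uncalled genes near 0 did. The miR-486-3p rises of H2BC4, H2BC10, H2BC14 and H2AC7 were as small as 0.11, 0.10, 0.22 and 0.12 under other settings. Median scaling moved the median of all genes by −0.37 after miR-486-3p and −0.30 between the strands, and no filter moved it by 0.17 and 0.11.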

Other observations

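Histone genes outside the rule were looked at after their values were seen. Of 17 such genes (testis histones, H2A.B, H2AJ, H3.5 and CENPA among them), 8 had a value, with medians of 0.19 after miR-486-5p and −0.08 with miR-486-3p. CENPA, the H3 variant that marks centromeres, read 2.69 and 2.57 with reagent alone, 1.28 with the 5p strand and 0.35 with the 3p strand. It lay below both mock arrays after each strand and limma called it lower after both, at −1.36 and −2.28 (adjusted p = 0.0476 and 0.00762). H2BW2, a testis H2B, read −1.92 and −2.0 with reagent alone, −1.66 with the 5p strand and −1.09 with the 3p strand, and was called higher with miR-486-3p alone, at 0.88 (limma, adjusted p = 0.0151). H3-5 was called for the difference between the strands alone, at 0.63.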
